A study of Homo sapiens with 8 samples.

Results

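The EGFR family receptors and their ligands were described here in BT474, a line of human breast cancer cells that carries extra copies of ERBB2. The members were the rows of the deposited series table named EGFR, ERBB3, ERBB4, EGF, AREG, EREG, BTC, HBEGF, TGFA or NRG1, which are 10 of the 26475 genes in the table. ERBB2, the fourth receptor of the family, was not a member. RNA was sequenced from 8 samples, of which 4 were labelled NPY1R high and 4 NPY1R low, where NPY1R encodes the neuropeptide Y receptor Y1. All 8 share the cell line, and the labels name no drug, added gene or time point and do not say how high and low cells were obtained. The series title concerns cells that tolerate lapatinib, an inhibitor of the EGFR and ERBB2 kinases, and the comparison asks how expression differs between the NPY1R groups. The labels also do not say whether the samples came from separate cultures, so p-values measure the spread between these samples, which may be technical.

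Receptors of this family sit in the cell membrane and signal as pairs through their tyrosine kinase domains. EGF, TGFA and AREG bind EGFR, whereas BTC, HBEGF and EREG bind both EGFR and ERBB4, and the neuregulin NRG1 binds ERBB3 and ERBB4. ERBB3 has a weak kinase and signals mainly through its partner, often ERBB2, which has no known ligand of its own. The ligands are made as membrane proteins and are released by proteases at the cell surface. In breast epithelium AREG is known as a mediator of estrogen signals in duct growth, and in ERBB2-amplified tumours the pairing of ERBB2 with ERBB3 is known to feed the PI3K pathway.

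Promoter windows of the 3 members that differed between the groups, and of AREG, an abundant ligand, are shown first so that the genes can be compared by what lies before their starts. The sequences are RefSeq's on GRCh38.p14, 5′ to 3′ on the gene's strand, and stop before the start of the gene in both RefSeq and GENCODE release 29. Capitals mark matches on either strand to any of 4 short motifs. The GC box, which Sp-family factors bind, was searched as GGGCGG. The cyclic AMP response element was searched as TGACGTCA and the TCC repeat as TCCTCCTCC. The TATA box, which helps place the start of transcription, was searched as TATAAA. The full palindromic estrogen response element was also searched by its consensus. The windows are chr7:55018767-55019016 on the plus strand for EGFR, chr4:109912633-109912882 on the plus strand for EGF, chr2:212538842-212539052 on the minus strand for ERBB4, and chr4:74444886-74445133 on the plus strand for AREG.
EGFR: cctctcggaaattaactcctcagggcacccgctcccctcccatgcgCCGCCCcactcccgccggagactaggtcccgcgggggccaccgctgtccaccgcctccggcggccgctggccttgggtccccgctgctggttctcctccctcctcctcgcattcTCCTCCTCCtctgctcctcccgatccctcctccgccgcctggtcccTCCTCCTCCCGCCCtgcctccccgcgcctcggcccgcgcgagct
EGF: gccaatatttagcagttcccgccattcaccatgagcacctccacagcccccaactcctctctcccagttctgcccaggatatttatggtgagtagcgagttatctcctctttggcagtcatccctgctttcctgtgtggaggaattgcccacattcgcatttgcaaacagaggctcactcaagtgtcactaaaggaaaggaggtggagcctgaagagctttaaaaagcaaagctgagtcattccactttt
ERBB4: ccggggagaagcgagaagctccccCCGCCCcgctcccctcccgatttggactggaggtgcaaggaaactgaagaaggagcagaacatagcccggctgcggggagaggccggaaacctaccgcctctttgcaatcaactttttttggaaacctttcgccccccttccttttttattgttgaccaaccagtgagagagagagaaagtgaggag
AREG: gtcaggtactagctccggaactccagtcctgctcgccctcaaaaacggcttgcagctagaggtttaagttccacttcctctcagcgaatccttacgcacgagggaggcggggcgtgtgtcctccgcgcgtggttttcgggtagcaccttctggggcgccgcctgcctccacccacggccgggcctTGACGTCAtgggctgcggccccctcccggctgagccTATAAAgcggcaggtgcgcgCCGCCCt

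In the 250 bases before the RefSeq start, of which 211 are printed for ERBB4 and 248 for AREG, EGFR held 2 GC boxes and 2 TCC repeats, of which 1 overlapped a GC box, and no TATA box. TCC repeats were in 3.18% of the 35116 windows of that length in the table, and GC boxes in 42.6%. AREG held 1 cyclic AMP response element, found in 1.65% of all windows, 1 TATA box, found in 10.7%, and 1 GC box. ERBB4 held 1 GC box. The EGF window held none of the 5 motifs. G and C made up 73.6% of the EGFR window, 65.2% of that of AREG, 57.2% of that of ERBB4 and 48.8% of that of EGF. No member window that was searched held the estrogen response element, which was in 0.0399% of all windows. The windows of HBEGF and TGFA held 5 and 3 GC boxes, that of EREG held 1 TATA box, and that of BTC held none of the 5 motifs. Windows were searched for 8 of the 10 members. ERBB3 had no window, and NRG1 was left out of the search. EGFR and TGFA had 2 windows each, of which 1 was used. These matches describe letters and do not show that a factor binds.

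Libraries held from 18025648 to 30609791 expected counts, the estimated reads per gene that the authors deposited. NPY1R was at 699.3 to 1048.9 CPM (counts scaled to a common library size) in the NPY1R high libraries and 90.8 to 103.7 in the NPY1R low libraries, which matched the labels. Of 10 markers of a luminal breast line, all had a mean of at least 24.6 CPM in both groups, and their sum ranged from 8258.7 to 9283.9 CPM in NPY1R high and from 8469.7 to 10561.1 in NPY1R low. Of these 10, ESR1 and GATA3 rose and XBP1, EPCAM and FOXA1 fell in NPY1R high, and their part in the results was not tested. Of 10 markers of other cell types, 6 stayed under 1 CPM in every library, with COL1A2 and KRT14 at 0. Of the 4 others, COL1A1 averaged 14.1 CPM in NPY1R high and 15.5 in NPY1R low, and VWF 11.7 and 16.1. TP63 averaged 6.36 and 6.28 CPM and CD68 1.08 and 1.63. The log2 fold change was -0.47 for VWF and -0.59 for CD68 (edgeR quasi-likelihood adjusted p = 0.0987 and 0.128). The sum of all 10 ranged from 28.8 to 42.7 CPM in NPY1R high and from 32.7 to 44.2 in NPY1R low. Over all 14008 tested genes, 13.6% passed the threshold (an edgeR quasi-likelihood adjusted p under 0.05), with 5.78% higher and 7.81% lower in NPY1R high. That split of 42.5% higher among calls became 56.3% with upper-quartile scaling.

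EGFR and EGF fell and ERBB4 rose in NPY1R high cells. These were 3 of the 8 members tested (37.5%), against 13.6% of all tested genes, and the groups did not overlap for the same 3 members, against 20.2% of all tested genes (8.78% higher and 11.4% lower in NPY1R high). EGFR and EGF also changed by at least 1.5-fold, and 6.25% of all tested genes passed with a change of that size. EGFR was 1.80-fold and EGF 1.98-fold lower in NPY1R high, and ERBB4 was 1.26-fold higher. The median log2 change of the 8 was 0.04, beside -0.03 over all tested genes. All 8 had counts in every library of both groups. HBEGF and NRG1 had too few counts to be tested.

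**Figure D1:**
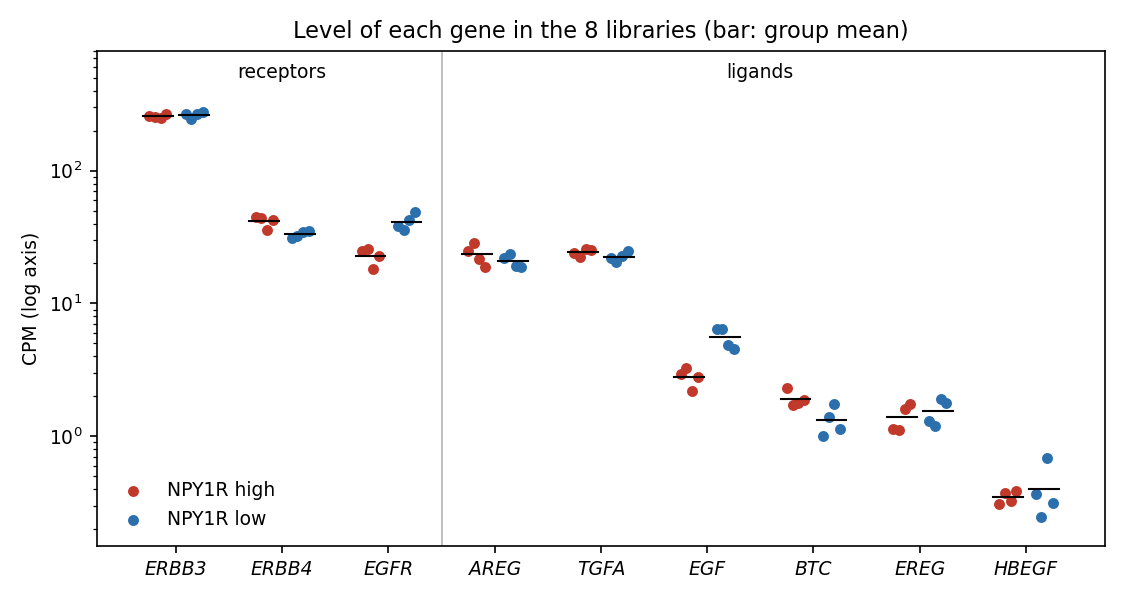
CPM of 9 members in each library on a log axis, with NPY1R high in red and NPY1R low in blue and a bar at each group mean (n = 4 each). NRG1 had no counts and is not drawn; EGFR, ERBB4 and EGF are the members whose groups do not overlap.

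EGFR, the receptor of EGF, TGFA and AREG, lies on chromosome 7 (55019021 to 55211628, plus strand). It had 25.05, 25.62, 18.24 and 22.69 CPM in NPY1R high replicates 1 to 4. In NPY1R low replicates 1 to 4 it had 37.98, 35.44, 42.24 and 49.25 CPM. Every NPY1R high library was below every NPY1R low library, with NPY1R high replicate 3 lowest and NPY1R low replicate 4 highest. The means were 22.9 ± 3.36 and 41.2 ± 6.04 CPM (SD, n = 4 each), a log2 fold change of -0.85 (SE 0.13, edgeR quasi-likelihood adjusted p = 0.00201). These values rest on 412 to 1254 counts per library. The log2 difference was -0.53 within replicates 1 and 2 and -1.16 within replicates 3 and 4, a division known from earlier results of these data and not from the labels. Without NPY1R high replicate 3 and NPY1R low replicate 4 together, EGFR fell by 0.62 on the log2 scale with an adjusted p of 0.00164. The antisense gene EGFR-AS1 overlaps EGFR, and its counts were 0.266% to 1.52% of those of EGFR. In bulk RNA, fewer cells that express a gene and less RNA per cell cannot be told apart.

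ERBB4, a receptor of neuregulins and of BTC, HBEGF and EREG, lies on chromosome 2 (211375717 to 212538841, minus strand). It had 44.70, 44.21, 35.72 and 42.78 CPM in NPY1R high replicates 1 to 4 and 30.97, 32.47, 34.73 and 34.997 CPM in NPY1R low replicates 1 to 4. The groups were separate, but NPY1R high replicate 3 was only just above the highest NPY1R low library. The mean was 41.9 ± 4.17 CPM in NPY1R high and 33.3 ± 1.92 in NPY1R low (SD, n = 4 each), a log2 fold change of 0.33 (SE 0.09, edgeR quasi-likelihood adjusted p = 0.0289). The call was lost in 5 of the 8 fits that left out a library, with adjusted p of 0.0862 without NPY1R high replicate 1, 0.0855 without replicate 2, 0.0533 without replicate 4, 0.0604 without NPY1R low replicate 1 and 0.0709 without replicate 2. The log2 difference was 0.49 within replicates 1 and 2 and 0.16 within replicates 3 and 4.

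ERBB3, the receptor of neuregulins with the weak kinase, lies on chromosome 12 (56076799 to 56103505, plus strand) and was the most abundant member. It had 248.1 to 268.3 CPM in the NPY1R high libraries and 244.3 to 274.4 CPM in the NPY1R low libraries. These ranges overlapped almost entirely, with means of 257.0 ± 8.98 and 263.2 ± 13.1 CPM (SD, n = 4 each). Its log2 fold change was -0.03 (SE 0.05, edgeR quasi-likelihood adjusted p = 0.757), and its sign depended on the scaling. ERBB2, the shared partner, had 2631.6 to 3577.3 CPM in NPY1R high and 2876.2 to 4289.1 CPM in NPY1R low (edgeR quasi-likelihood adjusted p = 0.306). Per kilobase of the longest coding transcript, ERBB2 made up 92.2% to 93.7% of the 4 receptors' RNA in NPY1R high and 91.7% to 94.9% in NPY1R low, and ERBB3 made up 5.51% to 7.03% and 4.43% to 7.08%. EGFR made up 0.307% to 0.371% in NPY1R high and 0.388% to 0.766% in NPY1R low, so the groups did not overlap. ERBB4 made up 0.462% to 0.517% and 0.27% to 0.441%, which also did not overlap. With the median coding transcript ERBB3 made up 18.5% to 22.7% in NPY1R high and 15.3% to 22.8% in NPY1R low. On that length EGFR made up 0.512% to 0.623% and 0.678% to 1.25%, and ERBB4 0.279% to 0.308% and 0.166% to 0.255%, again with no overlap between the groups.

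Ratios between receptors within a library, which do not depend on scaling between libraries, differed between the groups for all 3 pairs. These ratios reuse the counts tested above, and ERBB4 over EGFR follows from the other 2, so they are not separate results. ERBB4 had 1.78, 1.73, 1.96 and 1.89 counts per count of EGFR in NPY1R high replicates 1 to 4, and 0.815, 0.916, 0.822 and 0.711 in NPY1R low replicates 1 to 4. ERBB4 counts were thus above EGFR counts in every NPY1R high library and below them in every NPY1R low library. These counts are not scaled by transcript length, so they do not give the order of the 2 genes in abundance. Per kilobase of the median coding transcript, the EGFR mean was above that of ERBB4 in both groups. The means were 6.83 and 3.58 CPM in NPY1R high and 12.3 and 2.85 CPM in NPY1R low. The log2 ratio averaged 0.88 ± 0.08 in NPY1R high and -0.30 ± 0.15 in NPY1R low (SD, n = 4 each), a difference of 1.18. EGFR had 0.0735 to 0.102 counts per count of ERBB3 in NPY1R high and 0.143 to 0.179 in NPY1R low, a log2 difference of -0.82. ERBB4 had 0.144 to 0.176 counts per count of ERBB3 in NPY1R high and 0.117 to 0.133 in NPY1R low, a log2 difference of 0.36. No ratio overlapped between the groups, and each had an exact two-sided permutation p of 0.0286 (also 0.0286 after Benjamini-Hochberg adjustment over the 3 ratios), the smallest that 4 against 4 libraries allow. Within replicates 1 and 2 the 3 differences, in the order given, were 1.02, -0.54 and 0.48, and within replicates 3 and 4 they were 1.33, -1.09 and 0.24.

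**Figure D2:**
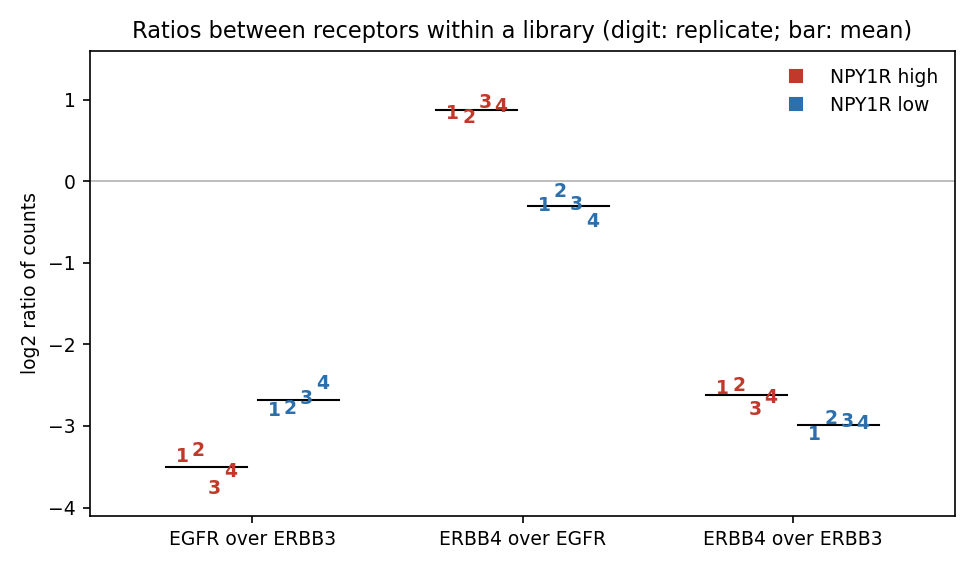
Log2 ratio of the counts of 2 receptors within each library, with digits for the replicate, red for NPY1R high, blue for NPY1R low and bars for group means. Only ERBB4 over EGFR crosses 0, from 0.71 to 0.92 counts of ERBB4 per EGFR count in NPY1R low to 1.73 to 1.96 in NPY1R high. Counts are not scaled by transcript length, and the order of EGFR and ERBB4 in abundance depended on the length used.

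Among the ligands, EGF, for which the family's first receptor is named, was the ligand member that fell. The gene lies on chromosome 4 (109912884 to 110012266, plus strand). It had 2.92, 3.27, 2.21 and 2.81 CPM in NPY1R high replicates 1 to 4, and 6.38, 6.37, 4.90 and 4.56 CPM in NPY1R low replicates 1 to 4. All NPY1R high libraries were below all NPY1R low libraries. The means were 2.80 ± 0.44 and 5.55 ± 0.96 CPM (SD, n = 4 each), a log2 fold change of -0.99 (SE 0.17, edgeR quasi-likelihood adjusted p = 0.00406). The log2 difference was -1.03 within replicates 1 and 2 and -0.90 within replicates 3 and 4. EGF rested on 51 to 190 counts per library.

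AREG and TGFA, both ligands of EGFR alone, were the most abundant ligands and did not pass the test. AREG, on chromosome 4 (74445134 to 74455009, plus strand), had 25.01, 28.71, 21.75 and 18.72 CPM in NPY1R high replicates 1 to 4 and 21.98, 23.71, 18.99 and 18.77 CPM in NPY1R low replicates 1 to 4. Replicates 1 and 2 of either group were above replicates 3 and 4 of the same group. Its log2 fold change was 0.18 (SE 0.14, edgeR quasi-likelihood adjusted p = 0.483). TGFA, on chromosome 2 (70447280 to 70554193, minus strand), had 22.31 to 25.55 CPM in NPY1R high and 20.38 to 24.98 in NPY1R low, which overlapped. Its log2 fold change was 0.11 (SE 0.09, edgeR quasi-likelihood adjusted p = 0.487).

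The ligands that bind both EGFR and ERBB4 were scarce, and so was EGF, at 2.21 to 3.27 CPM in NPY1R high and 4.56 to 6.38 in NPY1R low. BTC, on chromosome 4 (74744759 to 74794686, minus strand), had 2.30, 1.71, 1.77 and 1.87 CPM in NPY1R high replicates 1 to 4 and 1.01, 1.40, 1.74 and 1.14 CPM in NPY1R low replicates 1 to 4. Only NPY1R low replicate 3 reached the NPY1R high range. The log2 fold change was 0.55 (SE 0.21, edgeR quasi-likelihood adjusted p = 0.129). EREG, on chromosome 4 (74365143 to 74388751, plus strand), had 1.12 to 1.76 CPM in NPY1R high and 1.19 to 1.92 in NPY1R low, with a log2 fold change of -0.15 (SE 0.24, edgeR quasi-likelihood adjusted p = 0.771). HBEGF, on chromosome 5 (140332843 to 140346631, minus strand), had 9, 10, 9 and 7 counts in NPY1R high replicates 1 to 4 and 11, 7, 15 and 8 counts in NPY1R low replicates 1 to 4, and was left out by the filter on low counts. With no filter its log2 change was -0.15 (edgeR quasi-likelihood adjusted p = 0.880). NRG1, the neuregulin of ERBB3 and ERBB4, had 0 counts in every library, which allows up to 3 counts in each.

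**Figure D3:**
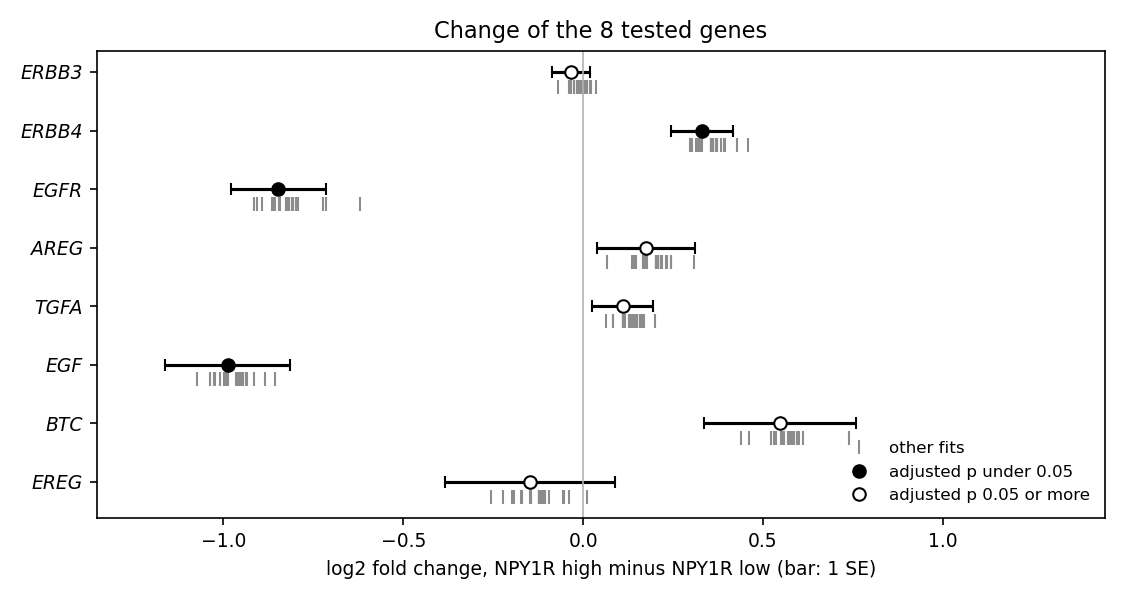
Log2 fold change (NPY1R high minus NPY1R low) of the 8 tested members with bars of 1 SE, filled where the adjusted p was under 0.05, and grey ticks for the other fits. EGFR and EGF lie below 0 and ERBB4 above 0 in every fit drawn, while ERBB3 and EREG have fits on both sides of 0.

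Levels were compared between members as CPM per kilobase of the longest coding transcript in GENCODE release 29. ERBB3 stood at 43.4 ± 1.51 in NPY1R high and 44.5 ± 2.21 in NPY1R low (SD, n = 4 each), followed by AREG at 19.0 ± 3.46 and 16.8 ± 1.93 and TGFA at 5.63 ± 0.35 and 5.22 ± 0.44. Next in NPY1R high came ERBB4 at 3.45 ± 0.34 and EGFR at 2.33 ± 0.34, whose libraries did not overlap. In NPY1R low the order was EGFR at 4.20 ± 0.62, then ERBB4 at 2.74 ± 0.16, again with no overlap, while EGFR overlapped TGFA. BTC at 0.68 ± 0.09 and EGF at 0.57 ± 0.09 overlapped in NPY1R high, where EREG at 0.30 ± 0.07 was below both. In NPY1R low EGF at 1.14 ± 0.20 was above BTC at 0.47 ± 0.12 in every library, and the ranges of BTC and EREG overlapped, as did those of EREG and HBEGF. Within each NPY1R low library, however, TGFA was above EGFR, BTC above EREG and EREG above HBEGF. The order of EGFR and ERBB4, and that of AREG and TGFA, depended on the length used. Per kilobase of the median coding transcript, EGFR had 6.83 in NPY1R high and 12.3 in NPY1R low, and ERBB4 had 3.58 and 2.85. On that length TGFA, at 25.6 in NPY1R high and 23.7 in NPY1R low, had a higher mean than AREG, at 21.4 and 19.0. Per kilobase of the longest coding transcript, AREG made up 66.3% to 77.2% of the 6 ligands with a count in NPY1R high and 66.4% to 73.5% in NPY1R low. With the median coding transcript its share was 37.0% to 50.5% and 37.5% to 47.3%. EGF made up 1.81% to 2.53% in NPY1R high and 4.10% to 5.24% in NPY1R low with the longest transcript, and 1.01% to 1.41% and 2.23% to 3.12% with the median one, with no overlap on either length.

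The tested genes with at least 5 CPM whose log2 CPM over the 8 libraries, centred on each gene's mean, lay nearest to each called member were found among 10441 or 10442 candidates, and they are given as a description. Nearest to EGFR were BDKRB2, GAS2L3 and NCAPD2, at root mean square distances of 0.09, 0.10 and 0.11 on the log2 scale, where EGFR itself had an SD of 0.50. Nearest to ERBB4 were IGFBP5, USP31 and ATP11A, at 0.06, 0.07 and 0.07, where ERBB4 had an SD of 0.21. Nearest to EGF were ANO1, CORO2A and FGFR3, at 0.09, 0.12 and 0.12, where EGF had an SD of 0.56.

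Of 51 other genes of the pathway in 4 lists, 45 were tested. NRG3, PIK3R1 and SH3KBP1 rose and ADAM9, LRIG1, PTPN12 and GRB2 fell, so 7 (15.6%) passed, against 13.6% of all tested genes. The count was 4 without NPY1R high replicate 1, 3 or 4 and 3 without NPY1R low replicate 3. Over all tested genes, the calls in those fits were, in that order, 637 higher and 812 lower, 735 and 709, 727 and 626, and 708 and 588. In the main fit they were 810 and 1094. The split of 3 higher and 4 lower depended on the scaling: it was 4 higher and 2 lower in 11 of 28 alternatives, among them median-of-ratios, upper-quartile and library-total scaling and the 7 other TMM references. In those 11, ADAM9 and GRB2 did not pass and SOCS3 did. The median log2 change of the 45 was 0.002, and -0.03 over all tested genes.

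Of the other ligands, 1 of 3 tested passed (33.3%, against 13.6% of all tested genes). NRG3, a neuregulin known to bind ERBB4, had 2.54, 2.27, 2.71 and 3.36 CPM in NPY1R high replicates 1 to 4 and 0.60, 1.05, 0.23 and 0.47 CPM in NPY1R low replicates 1 to 4. Every NPY1R high library was above every NPY1R low library, with a log2 fold change of 2.15 (SE 0.34, edgeR quasi-likelihood adjusted p = 0.00210). NRG3 had the largest absolute change of the members and listed pathway genes that passed. At 0.23 to 1.05 CPM in NPY1R low, the size of that change rests on few counts in that group. Over the 8 fits that left out a library, the log2 change ranged from 1.96 to 2.58. EPGN, a ligand of EGFR, had 0.51 to 1.89 CPM in NPY1R high and 0.24 to 0.70 in NPY1R low, and NRG4, another ligand of ERBB4, had 0.33 to 0.78 and 0.67 to 1.22, with adjusted p of 0.198 and 0.283 in the same test. NRG2 had too few counts to be tested.

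Among genes of ligand release, 1 of 10 tested passed and fell (10%, against 13.6% of all tested genes), and the median log2 change of the list was -0.03. ADAM9, a membrane protease, had 71.0 to 87.2 CPM in NPY1R high and 88.0 to 109.2 in NPY1R low, a log2 fold change of -0.33 (SE 0.08, edgeR quasi-likelihood adjusted p = 0.0282). The call was lost in 17 of 27 other fits. ADAM10, known to release EGF and BTC, had 170.5 to 184.3 CPM in NPY1R high and 194.1 to 212.3 in NPY1R low, which did not overlap (edgeR quasi-likelihood adjusted p = 0.0746). ADAM10 passed in 2 of 27 other fits. The term for replicates 1 and 2 against 3 and 4 gave an adjusted p of 0.0471. The GC offset with the replicate block gave 0.0306. ADAM10 was not called in the other 25, with an edgeR quasi-likelihood adjusted p of up to 0.386. ADAM17, known to release AREG, TGFA, EREG and HBEGF, had 66.6 to 77.0 and 59.8 to 76.7 CPM, with an adjusted p of 0.878.

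Among negative regulators, 3 of 13 tested passed (23.1%, against 13.6% of all tested genes), with a median log2 change of -0.03. LRIG1, which promotes loss of the receptors from the cell, had 77.7 to 98.0 CPM in NPY1R high and 106.6 to 121.9 in NPY1R low, a log2 fold change of -0.36 (SE 0.08, edgeR quasi-likelihood adjusted p = 0.0117). PTPN12, a tyrosine phosphatase, had 43.0 to 47.5 and 53.8 to 63.1 CPM, a log2 fold change of -0.35 (SE 0.07, edgeR quasi-likelihood adjusted p = 0.00907). SH3KBP1, an adaptor that links the ubiquitin ligase CBL to receptor uptake, had 11.3 to 14.3 and 7.81 to 10.3 CPM, a log2 fold change of 0.50 (SE 0.13, adjusted p = 0.0333). SH3KBP1 was not called in 5 of the 8 fits that left out a library, nor LRIG1 in 2 of them or PTPN12 in 1, with adjusted p up to 0.0878, 0.0705 and 0.0694. SOCS3, a suppressor of cytokine signalling, had 2.42 to 3.16 CPM in NPY1R high and 1.28 to 2.31 in NPY1R low, which did not overlap, with a log2 fold change of 0.69 (SE 0.21, edgeR quasi-likelihood adjusted p = 0.0553). SOCS3 passed in 17 of 27 other fits, whose adjusted p ranged from 0.0106 to 0.140. ERRFI1, an inhibitor of the EGFR kinase, had 35.1 to 40.9 CPM in NPY1R high and 34.3 to 37.3 in NPY1R low (edgeR quasi-likelihood adjusted p = 0.424).

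Among adaptors and effectors, 2 of 19 tested passed (10.5%, against 13.6% of all tested genes), with a median log2 change of 0.009. PIK3R1, the regulatory subunit of PI3K that binds phosphorylated ERBB3, had 150.7, 152.6, 153.6 and 150.9 CPM in NPY1R high replicates 1 to 4 and 90.7, 89.6, 98.1 and 102.5 CPM in NPY1R low replicates 1 to 4. The NPY1R high libraries lay within 3 CPM of each other and far above the NPY1R low libraries, with a log2 fold change of 0.68 (SE 0.05, edgeR quasi-likelihood adjusted p = 3.94e-05). GRB2, which links receptors to RAS, had 87.4 to 97.1 and 100.9 to 106.7 CPM, a log2 fold change of -0.18 (SE 0.05, edgeR quasi-likelihood adjusted p = 0.0429). GRB2 lost the threshold in 24 of 27 other fits.

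**Figure D4:**
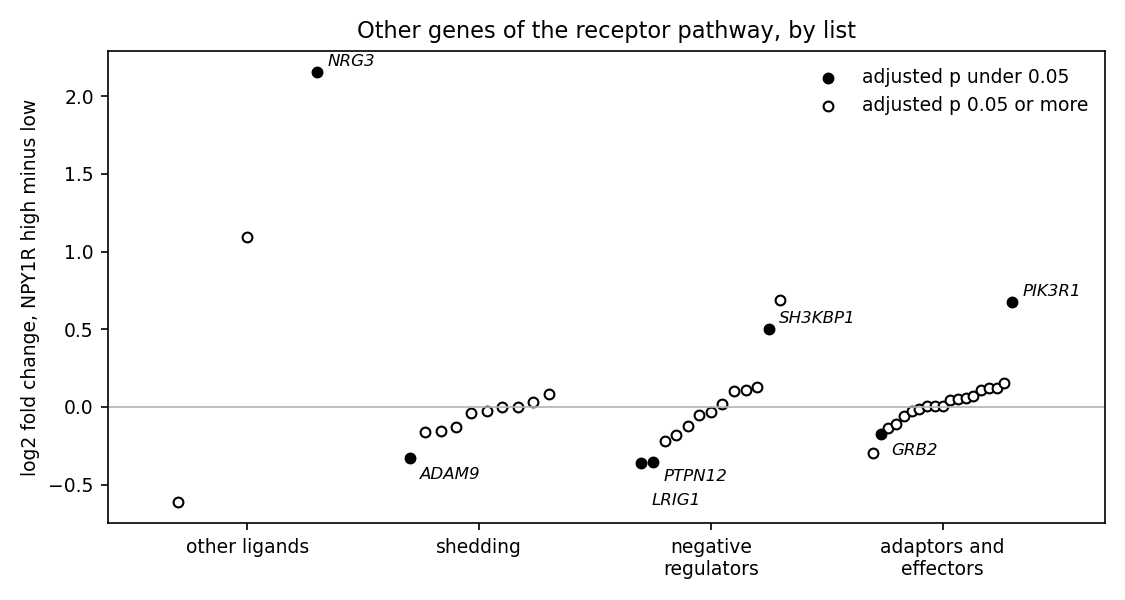
Log2 fold change (NPY1R high minus NPY1R low) of the 45 tested pathway genes by list, 1 point a gene, filled and named where the adjusted p was under 0.05. Of the 7 filled points, NRG3 at 2.15 and PIK3R1 at 0.68 lie highest.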

How the data were processed

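RNA libraries of 8 BT474 samples (4 NPY1R high, 4 NPY1R low) were analysed. The authors deposited expected counts, listed by gene symbol and without scaling. The submitters' processing notes name STAR 2.5.2, RSEM 1.3.0 and hg38, and the annotation and the strand setting of the counting are not given in the sources used here. The single-sample tables differed from the series table in 0 values. Between 7.97% and 8.76% of values in a library were not whole, so counts were rounded before testing. Total counts of 18025648 to 30609791 per library limit precision, and chi-square per degree of freedom in the 12 pairs within groups was 5.75 to 62.3, so none was a repeated deposit. Reads carry no molecular identifiers, so limits from counting cover counting error only.

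Genes were filtered with edgeR's filterByExpr (minimum count 10), which left 14008 genes, scaled by TMM and tested with edgeR's quasi-likelihood test (NPY1R high against NPY1R low, no covariates), with Benjamini-Hochberg adjustment over all tested genes and a threshold of 0.05. SE is the log2 change divided by the square root of F. CPM are on the TMM scale, and log2 CPM used a prior count of 2. For receptor ratios, the test was an exact two-sided permutation of libraries. The software was edgeR 4.0.16, DESeq2 1.42.0 and limma 3.58.1 under R 4.3.3. The procedure was tested on simulated counts. Gene positions and transcript lengths came from GENCODE release 29 (GRCh38), and promoter windows from RefSeq.

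All members were named. From each pathway list, genes past the threshold were named, up to 4 in each direction, with the 3 nearest profiles of each called member. EPGN, NRG4, NRG2, ADAM10, ADAM17, SOCS3 and ERRFI1 were named after their values were seen. The members, lists and tests were chosen with earlier results of these data known. Alternatives were other scalings and TMM references, other filters, DESeq2, limma-voom, a replicate block, a term for replicates 1 and 2 against 3 and 4, a GC offset (97.2% of tested genes had a GC value), leaving out each library, and a threshold of 0.01; leaving out NPY1R high replicate 3 and NPY1R low replicate 4 together, and shares by the median transcript length, were added after seeing the data.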

Additional observations from a re-analysis of the deposited data

Results flagged for a closer look

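ADAM10 in NPY1R low replicate 4 had 212.3 CPM, above replicates 1 to 3 at 194.1 to 196.7. Its distance from the next value was 0.86 of the whole spread, past Dixon's limit for 4 samples. Of 50 group values checked in this way, 1 stood apart, and chance gives about 2.5.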

How the results depend on the processing

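Over 27 alternatives, EGFR ranged from -0.91 to -0.62 (log2) and EGF from -1.07 to -0.86, and both passed the threshold in each. ERBB4 ranged from 0.30 to 0.46 and lost it in 6, namely the 5 left-out libraries given above and the replicate block (edgeR quasi-likelihood adjusted p = 0.0555). Between 2 and 3 members passed in every fit. Of the 5 other tested members, none passed in any fit. ERBB3, not called, changed sign with upper-quartile factors (0.019), library totals (0.0052), no filter (0.0055), 1 CPM in 4 libraries (0.0068), NPY1R low replicates 1 (0.0046) or 2 (0.0054) as TMM reference, without NPY1R high 3 and NPY1R low 4 together (0.036), and over the 8 fits without a library, from -0.069 to 0.022. EREG ranged from -0.26 to 0.012 and ADAM17 from -0.031 to 0.12 in those fits.

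The count of pathway genes was 11 when replicates 1 and 2 were set against 3 and 4 as a term, 11 with the GC offset and replicate block, 3 at an adjusted p of 0.01, and from 3 to 7 without a library. Calls over all 14008 tested genes moved too. They were 1205 higher and 1681 lower with the term and 1216 and 1826 with the offset and block, against 810 and 1094. The cause of these moves was not tested. ERBB2 passed with the GC offset (edgeR quasi-likelihood adjusted p = 0.0354), with the offset and block (0.0227) and without NPY1R low replicate 4 (0.0492).

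Same-numbered libraries deviated together at correlations of 0.339, 0.157, 0.0905 and 0.0179 across genes, so the numbers were not taken as pairs, and 2 of 8 libraries correlated best with their own number. Each library of replicates 1 and 2 correlated best with replicate 1 or 2 of the other group, and each of 3 and 4 with 3 or 4. Under the replicate block the test called 805 genes higher and 1028 lower, in place of 810 and 1094. With the term for replicates 1 and 2 against 3 and 4 it called 1205 higher and 1681 lower. For the ratios, sign flips of same-numbered pairs give a replicate block p of 0.125 at best, reached by the differences of -0.82 (EGFR over ERBB3), 1.18 (ERBB4 over EGFR) and 0.36 (ERBB4 over ERBB3). Without a library the smallest possible p is 0.0571, reached in all 8, with differences of -0.88 to -0.73, 1.11 to 1.23 and 0.32 to 0.42. Within replicates 1 and 2 they were -0.54, 1.02 and 0.48, and within 3 and 4 -1.09, 1.33 and 0.24. HBEGF is limited by depth, and why NRG1 had no counts was not tested.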
